A study of Mus musculus with 11 samples.

Results

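NF-κB is a family of transcription factors that switches on inflammatory and survival genes in most cells, the epithelium lining the gum included. This report follows 6 genes of that pathway, Nfkbia, Nfkbiz, Map3k8, Myd88, Tnfaip2 and Litaf, which were taken by name from a deposited table of 178 mouse genes, and all 6 were found there. They were measured by RNA sequencing of the epithelial sheet peeled from mouse gingiva with Dispase, in 11 libraries. The mice were male B6, and 4 libraries are labelled naive. A further 3 are labelled ligature, from mice with silk tied around the upper second molars on both sides, a model of periodontitis called LIP (ligature-induced periodontitis). The remaining 4 are labelled removal, from mice given the same ligature and relieved of it on day 3. The strain is the same in all groups, no transgene or further agent is named, and the labels used here give neither the age of the mice nor the day of tissue collection.

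At rest, NF-κB dimers are held in the cytoplasm by inhibitors, the best known of which is IκBα, the product of Nfkbia. Toll-like receptors and the interleukin-1 receptor, which sense microbial products and alarm cytokines, recruit the adaptor Myd88, and the kinases behind it mark IκBα for destruction. NF-κB then enters the nucleus and transcribes its targets, Nfkbia among them, so that the inhibitor is made anew. Nfkbiz encodes IκBζ, an atypical nuclear IκB protein that works as a co-regulator of secondary response genes in keratinocytes. Map3k8 encodes the kinase Tpl2, which links Toll-like receptor signals to the ERK kinases. Tnfaip2 is a gene induced by tumour necrosis factor, and Litaf was named for its induction by bacterial lipopolysaccharide.

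Nfkbia serves as the classic transcriptional target in this group, and its promoter is shown because NF-κB is known to act on it in this feedback. RefSeq promoters (250 bases before to 50 after the start, build GRCm38.p6) were at hand for 4 of the 6 members, Nfkbia, Myd88, Tnfaip2 and Litaf. The Nfkbia stretch lies at chr12:55492598-55492897 on the minus strand. Capitals mark the 10 bases that match the NF-κB consensus on the opposite strand, the first of them 29 bases before the start.
Nfkbia: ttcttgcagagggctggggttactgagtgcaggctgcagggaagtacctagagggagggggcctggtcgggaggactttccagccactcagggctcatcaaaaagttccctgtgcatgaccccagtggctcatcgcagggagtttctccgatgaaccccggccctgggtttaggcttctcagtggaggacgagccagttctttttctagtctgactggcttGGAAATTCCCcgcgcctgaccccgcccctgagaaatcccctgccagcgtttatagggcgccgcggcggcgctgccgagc
The consensus was searched on both strands. It matched in 1 of the 4 members' promoters, in 13 of the 134 genes of the table that have such a promoter (9.7%), and in 4.51% of all 32851 mouse promoters in the collection. The 13 were Acsbg1, Fos, Fosb, H1f0, Hnrnpr, Ier3, Il12rb2, Jade1, Matn4, Nfkbia, Rps23, Vegfa and Vma21. Fos and Ier3 are described further on. The AP-1 site TGANTCA matched in 8.21% of the 134 table genes with a promoter and 7.81% of all promoters, and the CRE TGACGTCA in 4.48% and 1.79%. Neither was found in a member's promoter. A table gene counted as matched when any promoter listed for it matched, while the shares of all were taken per promoter. The shares of table genes and of all promoters are therefore unlike measures. Such matches describe letters within this window and are no measurement of binding.

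The table is a selected one. In a DESeq2 fit with a batch term, no gene in it had an unadjusted p above 0.0103 for the smaller of ligature and removal against naive. A call of a member is therefore favoured in advance and is read here against the share of all genes called. The members were also chosen with earlier results of these data known, so a share above that of the table is no independent support. The 178 genes together held 282274 to 503570 counts per library. These sums are not library depths, which are unknown. Values below are the authors' normalised read counts, that is, raw counts scaled with a single size factor for each library. The members had between 253 and 5399 raw counts in any library. The deposited batch correction showed that the libraries fall into 2 sets, A (naive 1 and 2, ligature 1, removal 2, 3 and 4) and B (naive 3 and 4, ligature 2 and 3, removal 1). Whether each library is a different mouse is not in the labels, and the p-values speak only of the spread among the 11 libraries, which may be technical.

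With the ligature in place, transcripts of all 6 members were lower than in naive epithelium. Mean levels fell to 49.4% of naive for Nfkbia and 54.4% for Nfkbiz, the 2 members of the IκB family, to 63.1% for Tnfaip2 and 66.9% for Map3k8, and to 75.3% for Myd88 and 76.7% for Litaf. All 6 passed the edgeR quasi-likelihood test at a Benjamini-Hochberg adjusted p under 0.05, beside 56.8% of the 176 genes tested that were called lower. Every ligature library lay under every naive library for each of the 6, as it did for 48.9% of those genes. The members' median log2 fold change was -0.62, and that of all genes tested was -0.38. After the ligature had been removed, mean levels stood between those of the other groups for all 6 members, at 66.5% (Nfkbia) to 88.4% (Litaf) of naive. The median log2 fold change of all genes tested was -0.17 for removal against naive and 0.20 for removal against ligature. The share of all genes with such an intermediate mean was not counted.

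**Figure D1:**
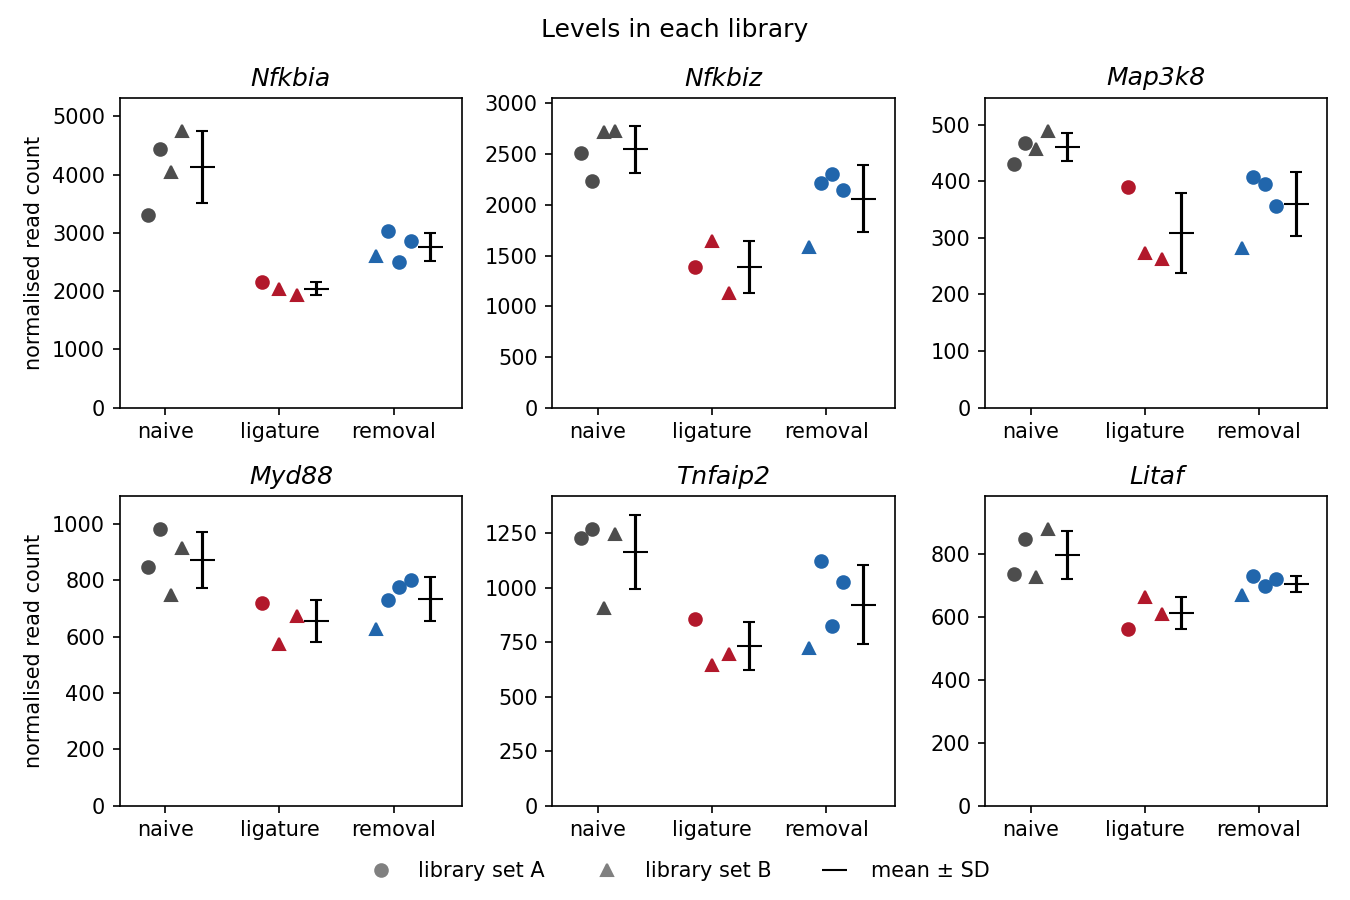
Normalised read count (vertical axis, linear from 0) of each of the 6 genes in every library, by group; circles are libraries of set A, triangles of set B, and the bar is the group mean ± SD (n = 4 naive, 3 ligature, 4 removal). For Nfkbia the 3 groups do not overlap, with naive from 3310 to 4744, removal from 2507 to 3031 and ligature from 1935 to 2159.

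Nfkbia (ENSMUSG00000021025) had 3310, 4431, 4048 and 4744 normalised counts in the naive libraries, 2159, 2035 and 1935 with the ligature, and 2603, 3031, 2507 and 2861 after removal. It is the only member whose 3 groups were fully apart, naive high, removal in between and ligature low. Egr1, described further on, had the same order without overlap, and the share of all genes that have it was not counted. The ligature mean was 2043 ± 112 (SD, n = 3) against 4133 ± 618 (n = 4) in naive, or -1.02 ± 0.12 (SE) in log2 units, with an edgeR adjusted p = 0.000201. The removal mean was 2750 ± 239 (n = 4), and its log2 difference from naive was -0.59 ± 0.11 (edgeR adjusted p = 0.00778). It was higher than with the ligature by 0.43 ± 0.12 (edgeR adjusted p = 0.0276). The ligature libraries lay close together, with a coefficient of variation of 5.49%, and naive replicate 1 was the lowest naive library.

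Nfkbiz (ENSMUSG00000035356) had 2511, 2237, 2717 and 2727 normalised counts in naive libraries, 1388, 1640 and 1128 with the ligature, and 1582, 2220, 2304 and 2143 after removal. The ligature libraries were all low. Of the removal libraries, replicate 1 was within the ligature range, and the other 3 were above it, replicate 3 reaching past the lowest naive library. The fall with the ligature was -0.88 ± 0.15 on the log2 scale (edgeR adjusted p = 0.000792; means 1385 ± 256, n = 3, against 2548 ± 230, n = 4). The rise from ligature to removal (mean 2062 ± 327, n = 4) was 0.57 ± 0.15 (edgeR adjusted p = 0.0276). Removal against naive stood at -0.30 ± 0.14 and did not pass (edgeR adjusted p = 0.0912), with a 95% confidence interval of -0.61 to -0.00.

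Myd88 (ENSMUSG00000032508), the adaptor of most Toll-like receptors, had 845.0, 979.4, 748.7 and 912.1 normalised counts in naive libraries, 720.0, 575.1 and 672.3 with the ligature, and 626.4, 731.1, 777.2 and 800.0 after removal. The gap between the highest ligature library (720.0) and the lowest naive library (748.7) was narrow, and removal libraries overlapped with both other groups. The difference with the ligature was -0.41 ± 0.13 on the log2 scale (edgeR adjusted p = 0.0108). Without ligature replicate 2, the lowest, it was -0.32 with adjusted p = 0.052 in edgeR. Removal against naive was -0.25 ± 0.12 (edgeR adjusted p = 0.0943), and removal against ligature 0.16 (95% confidence interval -0.11 to 0.44).

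Map3k8 (ENSMUSG00000024235), the Tpl2 kinase gene, had 430.4, 467.9, 456.9 and 488.6 normalised counts in naive libraries, 389.4, 272.5 and 263.2 with the ligature, and 282.5, 406.8, 394.6 and 356.7 after removal. Naive libraries were close together (coefficient of variation 5.26%), and every ligature and removal library lay below them. Among those 7, the 3 lowest were the libraries of set B, ligature replicates 2 and 3 and removal replicate 1. The log2 fold change was -0.58 ± 0.16 with the ligature (edgeR adjusted p = 0.00741) and -0.36 ± 0.15 after removal (edgeR adjusted p = 0.0738). Without ligature replicate 1, which stands far above the other ligature libraries, the ligature value was -0.78. The removal difference then passed (edgeR adjusted p = 0.0391), though it uses no ligature library and stayed at -0.36. Genes of the table called for removal against naive went from 66 to 78 in that fit.

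Tnfaip2 (ENSMUSG00000021281), which encodes a cytoplasmic protein known for membrane protrusions and nanotubes, had 1229, 1266, 908.4 and 1247 normalised counts in naive libraries, 857.2, 646.1 and 697.5 with the ligature, and 721.3, 1120, 821.9 and 1025 after removal. Naive replicate 3 was low beside 3 near-equal naive libraries but remained above all ligature libraries. Removal libraries spread over most of the range between the other groups. The fall with the ligature was -0.66 ± 0.17 on the log2 scale (edgeR adjusted p = 0.00585). Removal stood at -0.33 ± 0.16 against naive and 0.33 ± 0.17 against ligature, and neither passed (edgeR adjusted p = 0.0956 and 0.169).

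Litaf (ENSMUSG00000022500), which encodes a membrane protein of late endosomes and lysosomes, had 736.3, 847.7, 727.5 and 877.8 normalised counts in naive libraries, 563.2, 663.6 and 608.2 with the ligature, and 671.1, 731.1, 697.6 and 720.1 after removal. All removal libraries were above all ligature libraries, by a small margin, and they varied little (coefficient of variation 3.77%). The ligature difference was the smallest of the 6, -0.38 ± 0.10 (edgeR adjusted p = 0.00638). Removal against naive was -0.18 ± 0.09 and against ligature 0.21 ± 0.10, and neither passed (edgeR adjusted p = 0.13 and 0.161).

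**Figure D2:**
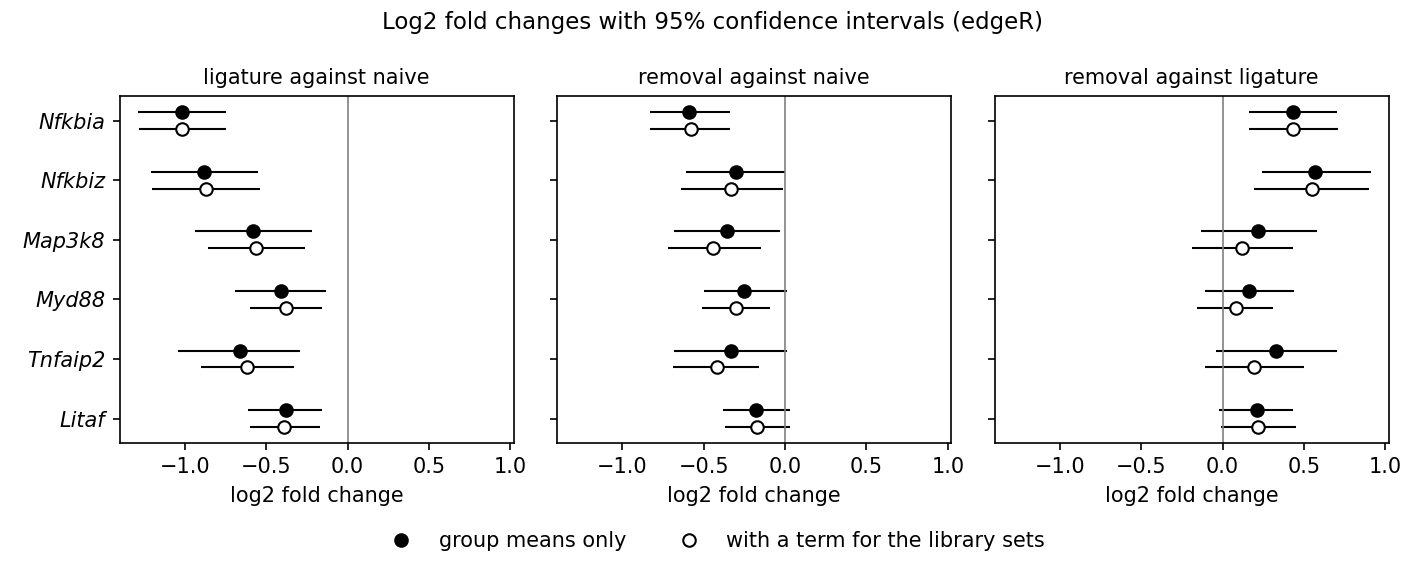
Log2 fold change (horizontal axis) of the 6 genes in 3 comparisons, with 95% confidence intervals from edgeR; filled points are from the fit of group means, open points from the fit with a term for the library sets. With the ligature all intervals lie below 0 in both fits; after removal against naive the filled interval of Nfkbia (-0.83 to -0.34) is the farthest from 0.

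After removal, 1 of the 6 members, Nfkbia, was called lower than naive, beside 24.4% of all genes tested. Libraries of removal and naive were apart for Nfkbia and Map3k8, 2 of 6 members, and removal was the lower group without overlap in 27.8% of genes. Nfkbia and Nfkbiz were called higher than with the ligature, 2 of 6, beside 17% of genes. Removal libraries were above all ligature libraries for Nfkbia and Litaf, 2 of 6, against 23.3% of genes. Both calls against ligature were lost when single libraries were left out. With any single ligature library left out, or removal replicate 2 or 4, neither passed. In those fits only 0 to 3 genes of the whole table were called, against 35 with all libraries. Over all 11 fits with 1 library left out, Nfkbia ranged from 0.38 to 0.47 and Nfkbiz from 0.45 to 0.71 on the log2 scale. Without removal replicate 3 Nfkbia was called and Nfkbiz was not. These 3 comparisons share their libraries in pairs and are not independent of each other.

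The scale on which libraries are compared bears on these values. With TMM factors computed over the table, which assume that most of its genes did not change, the median of all genes for ligature against naive moved from -0.38 to -0.02 and the members' median from -0.62 to -0.27. All 6 members remained below 0 with TMM and with median-of-ratios factors. With TMM 3 were called, Nfkbia (-0.66), Nfkbiz (-0.52) and Tnfaip2 (-0.30); Map3k8 stood at -0.23, Myd88 at -0.05 and Litaf at -0.02. For removal against naive Nfkbia was called on each scale (-0.39 with TMM), while Litaf turned from -0.18 to 0.03. For removal against ligature no member was called by edgeR with TMM. Nfkbia (0.27) and Nfkbiz (0.41) had an unadjusted p under 0.05 there, as had 71 of the 176 genes tested. Over all genes, the split of calls for ligature against naive was 100 lower and 50 higher on the deposited scale, and 51 and 64 with TMM. For removal against naive it was 43 lower and 23 higher, and 23 and 50 with TMM. For removal against ligature it was 5 lower and 30 higher, 12 and 17 with TMM, and 30 and 16 with median-of-ratios factors.

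Ratios of raw counts of 2 members within a library do not depend on any scale factor. The log2 ratio of Nfkbia to Litaf was 2.37 ± 0.14 (SD, n = 4) in naive, 1.74 ± 0.17 (n = 3) in ligature and 1.96 ± 0.09 (n = 4) in removal libraries. Naive libraries were all above the rest. With the ligature the ratio differed from naive by -0.62 (exact permutation p = 0.0571, two-sided, the smallest that 3 against 4 libraries allow; adjusted p = 0.171 over 15 pairs of members). After removal the difference from naive was -0.41 (exact permutation p = 0.0286, two-sided, the smallest that 4 against 4 allow; adjusted p = 0.429). The ratio of Nfkbia to Myd88 shifted by -0.60 and that to Map3k8 by -0.40 with the ligature, both without overlap of the libraries. Against Nfkbiz (-0.11) and Tnfaip2 (-0.34) the libraries overlapped. Of the 15 pairs of members, 5 did not overlap for ligature against naive, 1 did not for removal against naive, and all overlapped for removal against ligature. Over all 15051 pairs of the 174 genes with a count in every library, the shares without overlap were 57.8%, 34.7% and 28.9%. No difference in ratio among the members passed the adjustment, but the test could hardly have let one pass. In both comparisons with ligature the smallest possible p, 0.0571, lies above the threshold even before adjustment. For removal against naive, a pair could pass only if most of the 15 pairs reached the smallest p, 0.0286. No conclusion about the ratios is drawn from these adjusted values. The members' shares of pairs without overlap do not stand above those of the table.

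Within each library set, all 6 members were lower than naive with the ligature and after removal. The share of all genes for which this held was not counted. Nfkbia stood at 55.8% of naive in set A and 45.2% in set B with the ligature, and Nfkbiz at 58.5% and 50.8%. Map3k8 differed most between the sets, at 86.7% in set A, which holds 1 ligature library, and 56.7% in set B. After removal Nfkbiz was at 93.6% of naive in set A and at 58.1% in set B, where removal replicate 1 is the sole removal library. Set and replicate cannot be told apart where a set holds 1 library of a group.

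**Figure D3:**
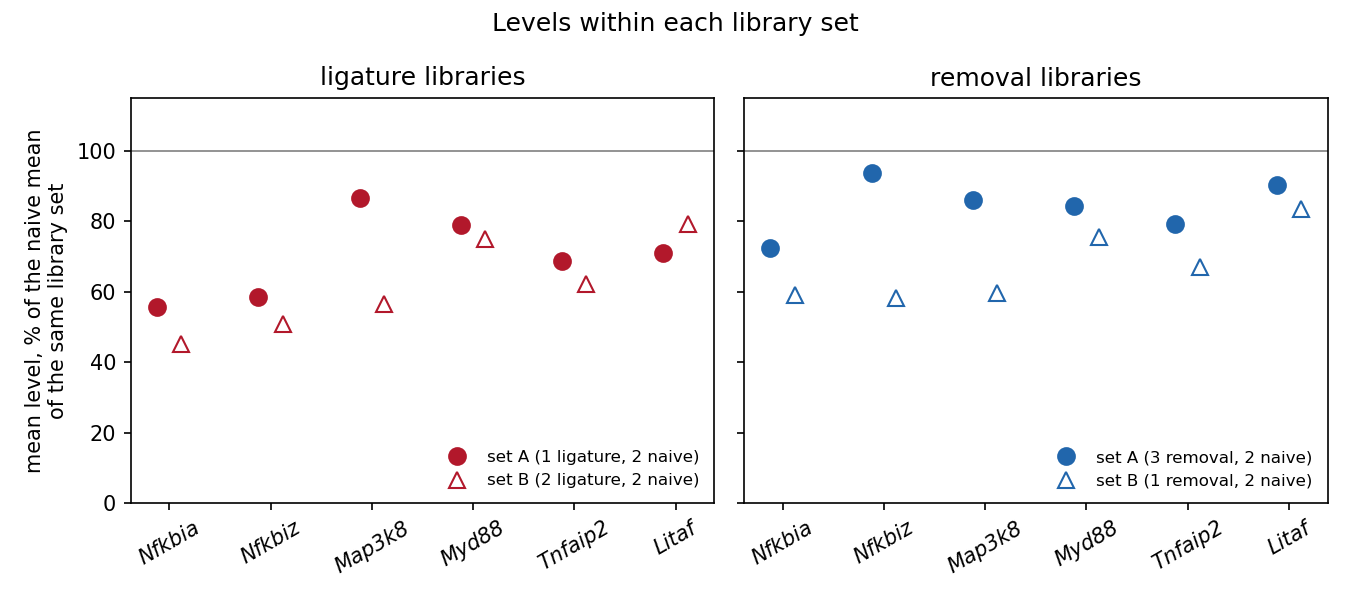
Mean level of each gene as a percentage of the naive mean of the same library set (vertical axis, from 0), for ligature libraries (left) and removal libraries (right); filled circles are set A and open triangles set B, and the line marks naive. All points lie below 100%, and the sets are farthest apart for Map3k8 with the ligature and for Nfkbiz after removal.

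With a term for the library sets in the edgeR fit, all 6 members were called lower with the ligature (59.7% of genes were). After removal 4 were called lower than naive (48.9% of genes were): Nfkbia, Map3k8 (-0.44, adjusted p = 0.0129 in edgeR), Tnfaip2 (-0.42, adjusted p = 0.0121) and Myd88 (-0.30, adjusted p = 0.0167). Nfkbiz (-0.33) and Litaf (-0.17) did not pass. Against ligature, Nfkbia and Nfkbiz were again called higher (21% of genes were). Tnfaip2 itself differed between the sets, lower in set B by a log2 value of -0.32 ± 0.11 (edgeR adjusted p = 0.0434), as 53 of the 176 genes did in either direction (30.1%). Map3k8 (-0.25) and Myd88 (-0.20) did not pass that test, and Nfkbia, Nfkbiz and Litaf stood at 0.01, -0.06 and 0.03.

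The wider pathway is thinly covered by this table. A list of 108 genes of Toll-like receptor and NF-κB signalling, its kinases, its targets, the ERK arm behind Map3k8 and the epithelial targets of IκBζ had 13 genes in it, the 6 members and 7 others. Genes of Toll-like receptors and of the NF-κB subunits themselves were not among them. The list was drawn up with earlier results of these data known, so the counts that follow are no independent evidence on the pathway. All 7 others were called lower with the ligature, beside the 56.8% of all genes tested, and 5 after removal, beside 24.4%. Those 5 were the targets Ptgs2 (prostaglandin synthase 2) and Ier3 (a stress-induced survival factor), the ERK-driven factors Egr1 and Fos, and the beta-defensin Defb14. The other two, Dusp1, a phosphatase of MAP kinases, and Defb3 stood at -0.34 ± 0.14 and 0.14 ± 0.43 after removal. With TMM factors Ier3 (-0.21) and Dusp1 (-0.17) were not called with the ligature, nor Ier3 (-0.30), Fos (-0.24) and Defb14 (-0.34) after removal. Leaving out single libraries also ended the calls after removal for Fos (naive replicate 1 or removal replicate 3; log2 values from -0.54 to -0.37 over the 11 fits) and for Defb14 (naive replicate 1, 3 or 4, or removal replicate 1 or 3; -0.62 to -0.42).

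Ier3, which NF-κB is known to induce, had 1025 to 1389 normalised counts in naive, 734.6 to 884.4 in ligature and 693.4 to 1002 in removal libraries. Ligature and removal were alike low, at -0.57 ± 0.14 and -0.49 ± 0.13 against naive on the log2 scale (edgeR adjusted p = 0.00436 and 0.0124). Removal against ligature was 0.07, with a 95% confidence interval of -0.22 to 0.37. For removal against ligature, Egr1 and Fos stood at 0.46 and 0.49 on the log2 scale and Defb3 at 1.90 ± 0.50, each called (edgeR adjusted p = 0.0276). These calls were lost, as for Nfkbia, with any ligature library left out or removal replicate 2 or 4, and for Defb3 also without removal replicate 3. Over the 11 such fits Egr1 ranged from 0.37 to 0.53, Fos from 0.39 to 0.56 and Defb3 from 1.49 to 2.19. Defb3 groups overlapped: removal replicate 1 had 61.41 normalised counts, within the ligature range of 34.93 to 63.25, and removal stood at 652% of ligature in set A but at 107.4% in set B. With TMM factors Egr1 (0.30) and Fos (0.33) were not called.

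**Figure D4:**
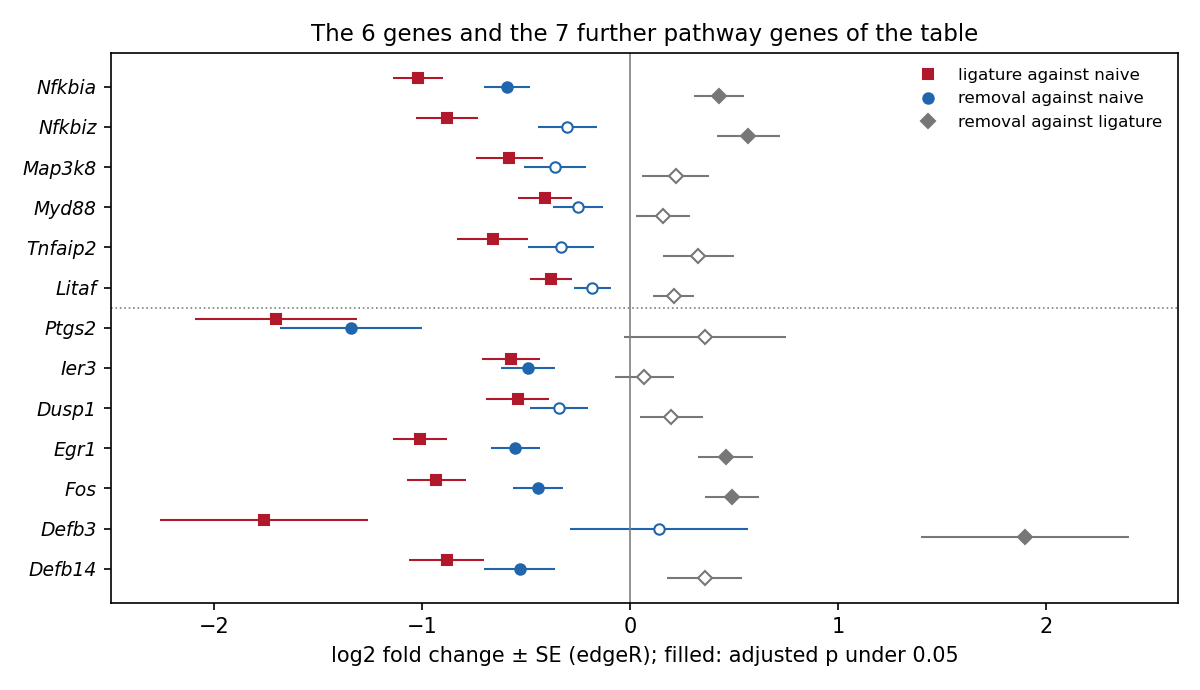
Log2 fold change ± SE (horizontal axis, edgeR) of the 6 genes (above the dotted line) and the 7 further pathway genes found in the table (below), for 3 comparisons; filled symbols have an adjusted p under 0.05. The genes were chosen with earlier results of these data known. All 13 squares (ligature against naive) lie below 0 and are filled, beside 56.8% of all genes called lower. Of the 13 diamonds (removal against ligature) 5 are filled, beside 17% of all genes called higher. None of the 5 stays filled with a ligature library left out.

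The genes whose levels most resembled each member were found by Pearson's r of log2(normalised count + 1) over the 11 libraries, which share group and library set, so r is given as a description. Closest to Nfkbia were Ier2 (r = 0.98), Iqcn and Egr1 (both 0.97). Closest to Nfkbiz were Tcim (0.97), Churc1 (0.95) and Stpg3 (0.93), and closest to Map3k8 were Tmem95 (0.96), Ppp1r10 (0.94) and Stpg3 (0.93). Myd88 was nearest to Rab31 (0.93), Dnajb1 and Cebpb (both 0.92), and Tnfaip2 to Rnf223 (0.97), Dnajb1 (0.96) and Sik3 (0.95). Litaf was nearest to Ier2, Cpn1 and Phlda1 (all 0.91). After the group means were taken out, the r of Tnfaip2 with Dnajb1 was 0.95 and that of Litaf with Ier2 was 0.67. Between members r ranged from 0.65 to 0.90, and from -0.01 (Map3k8 with Litaf) to 0.76 (Myd88 with Tnfaip2) once group means were taken out. The medians over the 15 pairs of members were 0.82 and 0.34, beside 0.16 and 0.09 over all 15753 pairs of genes in the table, which holds genes that moved in both directions.

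Bulk RNA cannot tell fewer cells of a type from less RNA per cell, and Litaf, Tnfaip2 and Myd88 are also expressed by myeloid cells. Of 6 macrophage markers only Cd68 was in the table. It had 221.9 to 335.7 normalised counts in naive, 170.4 to 190.6 in ligature and 208.2 to 237.8 in removal libraries, and ligature against naive was -0.67 ± 0.16 on the log2 scale (edgeR adjusted p = 0.00402; -0.31, not called, with TMM), and its part in the members' values was not tested. Krt10, a keratin of differentiating cells, was the sole gene of 8 epithelial markers in the table. It had 81960 to 109641 normalised counts in naive, 116428 to 187178 in ligature and 88347 to 162606 in removal libraries, high in each. Ligature against naive was 0.64 ± 0.22 (edgeR adjusted p = 0.0182), a call lost without naive replicate 4 or ligature replicate 1 (0.42 to 0.78 over the 11 fits), and its part in the members' values was not tested either. Markers of neutrophils, T cells, Langerhans cells, fibroblasts, endothelium and melanocytes were not in this table.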

How the data were processed

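The raw counts, deposited by the authors, are whole numbers per gene. The normalised counts deposited by the authors are a signal: each library's raw counts were scaled with a common size factor (0.757 to 1.21), recovered to within 0.0032 normalised counts. The batch-corrected values deposited by the authors are a score on the same scale, with 7 values below 0. Per the submitters' processing notes, the build was GRCm39 and the tools included DESeq2 1.36.0, HTSeq 2.01, TopHat2 2.1.1 and cutadapt 2.10, with no roles given. Neither the correction method nor the strand setting of the counting is given in the sources used here. Of 993339 rows, 178 named a gene.

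Raw counts were fitted with edgeR 4.0.16 (R 4.3.3; quasi-likelihood F test, all 11 libraries, deposited size factors as scale, default filter, which left 176 genes) and tested two-sided, with Benjamini-Hochberg adjustment over those genes. SE is the log2 fold change divided by the square root of F. Library sets were read from the deposited correction: among 957 divisions in 2 sets, 1 made corrected values linear in normalised counts (median residual 2.43e-05%, next 0.0692%). Alternatives used other scales, filters, pseudocounts (1 and 10), DESeq2 1.42.0, limma 3.58.1, a batch term, a replicate block and each library left out. The fit was tested on simulated data. Members and lists were chosen with earlier results of these data known. Named were the members, list genes in the table, and the 3 genes most alike to each member; the ratios of members within a library were chosen after seeing the data.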

Additional observations from a re-analysis of the deposited data

Results flagged for a closer look

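Among the 12 sets of 4 libraries examined (6 genes in naive and removal libraries), 1 had a library far from the others: Tnfaip2 in naive replicate 3, at 908.4 normalised counts, where the gap to the next library was 0.897 of the whole range. Chance marks about 1 in 20 such sets. That library belongs to set B, in which Tnfaip2 was lower, but the other naive library of set B, replicate 4, had 1247. Naive replicate 3 also had the lowest size factor of all libraries (0.757). The cause of its low value was not tested.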

How the results depend on the processing

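For ligature against naive, the 6 calls among the 6 genes held with no count filter and with at least 50 counts in at least 3 libraries. They also held with DESeq2, with limma at either pseudocount or on batch-corrected values and with the batch term. In these fits 95 to 105 genes of the table were called lower, against 100 in the main fit. The count was 3 with TMM and 2 with median-of-ratios factors, which assume that most genes of this selected table did not change. Genes of the table called lower then numbered 51 and 50 of 176. With 1 library left out 5 to 6 of the 6 were called, over 130 to 154 genes of the table called in either direction, against 150. For removal against naive, 1 of the 6 was called, and 4 with limma on batch-corrected values and with the batch term, where the genes of the table called went from 66 to 122 and 126; with 1 library left out they numbered 38 to 78 (38 without removal replicate 3, 42 without naive replicate 4, 43 without naive replicate 1), and 1 to 2 of the 6 genes were called. The count of 2 was reached without ligature replicate 1. For removal against ligature, 2 of the 6 were called, and 2 by DESeq2 with the deposited factors. With TMM and with median-of-ratios factors 0 were called. Of the 6, 2 and 1 then had an unadjusted p under 0.05 in edgeR, beside 71 and 75 of the 176 genes tested. With 1 library left out 0 to 2 were called, over 0 to 49 genes of the table called against 35. The table count was 0 without ligature replicate 1 or 2 or removal replicate 2 or 4. It was 3 without ligature replicate 3 and 21 without removal replicate 3. With the median-of-ratios factors Myd88 and Litaf stood at -0.04 and -0.01 in this comparison. There 29 genes of the table were called with TMM and 46 with median-of-ratios factors. With the replicate number as a block, 6, 1 and 0 of the 6 genes were called by edgeR in the 3 comparisons, beside 139, 49 and 8 genes of the table. In the last, removal against ligature, 2 of the 6 had an unadjusted p under 0.05 in edgeR, beside 48 of the 176 genes tested. These members were Nfkbia at 0.38 and Nfkbiz at 0.54. Deviations of same-numbered libraries from their group means correlated between -0.63 and 0.65. The highest value was for 2 libraries of set A, and the lowest for libraries of different sets. The library sets had not been taken out, so these values cannot tell whether the replicate numbers pair the libraries. No called value changed sign under any of these alternatives; the causes of the other changes were not tested.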
